A study of Mus musculus with 5 samples.

Results

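Histone genes and histone variants were taken from the deposited expression table by gene symbol: every symbol that opens with Hist1h, Hist2h, Hist3h or Hist4h, with H2af, H3f3 or H1f, or with one of the newer stems H2ac, H2bc, H3c and H4c. The rule found 83 genes among 32285, and no measured value entered it. The 83 fell into 59 replication-dependent core genes (17 for H2A, 17 for H2B, 12 for H3 and 13 for H4), 5 somatic linker H1 genes of the same clusters, 14 replacement variants, the oocyte linker histone H1foo, 3 cluster members best known from the germline, and the antisense transcript H3f3aos. At least 1 library had a value above 0 for 78 of them, 62 were above 0 in every library, and 33 were abundant enough to be tested (2 or more libraries with a value of 1 or higher). Hist2h2aa2, Hist2h2bb, Hist2h3b, H1fnt and H2afb2 were listed at 0 throughout. Of the 50-base windows of their annotated transcripts, 0% were unique to the gene for Hist2h2aa2 and 20.3% for Hist2h3b. How reads shared by several genes were counted was not stated, so a 0 for these genes does not show that the transcript was absent.

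The libraries came from mouse embryos at the 2-cell stage. Oocytes of superovulated females aged 6 to 9 weeks were fertilised in vitro for about 6 h with sperm of males aged 12 to 16 weeks, and zygotes with a pair of pronuclei were assigned at random to 24 h of culture. The medium, KSOM, held 25 nM PNMC in 3 libraries and the same volume of the solvent DMSO in the 2 control libraries; the labels do not spell out PNMC, and they give neither the strain nor the number of embryos per library. Nothing in the labels says that libraries of a group came from separate cultures, so p-values here reflect variation among libraries only, and that variation may be technical.

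Histones package DNA: paired H2A, H2B, H3 and H4 form the nucleosome core and a linker histone H1 binds where the DNA enters and leaves it. Replication-dependent histone genes, clustered in the genome and mostly without introns, supply new nucleosomes during DNA synthesis, and their mRNAs end in a short stem-loop in place of a poly(A) tail. Replacement variants such as H3.3 and H2A.Z come from solitary genes with ordinary polyadenylated mRNAs and can enter chromatin outside S phase. Oocytes store histone mRNA for the cleavage divisions, carry their own linker histone H1foo, and exchange it for somatic linkers early in development. Smart-seq2, the library method here, starts reverse transcription from poly(A), so for the replication-dependent genes a deposited value measures transcripts that this priming reached and not the whole mRNA pool.

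The 3′ ends are shown because they differ between the gene classes, though without a clean split, on a feature that the symbol rule did not use. In the following stretches of GENCODE M21 transcripts (build GRCm38), capitals mark the stem-loop, with 6 paired bases on each side of a loop of 4, and lower case marks up to 5 bases on either side.
Hist1h2ap: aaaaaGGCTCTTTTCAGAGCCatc
Hist1h2ao: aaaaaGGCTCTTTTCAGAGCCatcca
Hist1h2ag: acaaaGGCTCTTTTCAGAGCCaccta
Hist1h2bk: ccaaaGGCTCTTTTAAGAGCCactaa
Hist2h3c1: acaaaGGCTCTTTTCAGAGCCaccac
Hist1h4c: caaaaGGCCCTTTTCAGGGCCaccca
Hist1h4a: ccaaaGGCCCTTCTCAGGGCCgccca
H2afx: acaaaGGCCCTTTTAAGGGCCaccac
The capitals of Hist1h2ap lie in its 3′ UTR at chr13:21833029-21833044 on the minus strand, and those of Hist1h2ao at chr13:21810898-21810913 on the plus strand. The loop of H2afx is in the 3′ UTR at chr9:44335240-44335255 on the plus strand.

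A search of annotated transcripts, in their own orientation, for 16 bases with GG at the start, TTNTNA in the middle, CC at the end and all 6 stem positions paired matched 47 of the 83 histone genes. Over all 55341 genes with transcripts, 79 (0.143%) matched. The middle letters had been changed from TTTNNA after the ends of members that this earlier pattern missed were seen. Among the core genes 42 of 59 carried the stem-loop: 11 of 17 for H2A, 10 of 17 for H2B, 9 of 12 for H3 and 12 of 13 for H4. Of the other 17, 12 had an annotated 3′ UTR of under 16 bases, shorter than the motif, and 5 had a longer one without a match. The stem-loop was also in 3 of the 5 somatic linkers and in 1 of the 3 germline cluster members. H3f3a, H3f3b, H1foo and the replacement linkers H1f0, H1fx and H1fnt had none. H2afx was the only match among the 9 replacement H2A genes, of which 3 had a 3′ UTR of under 16 bases. The annotated transcript of H2afx ran on for 822 bases past the loop. Core genes varied in this: it ran on for 3 bases in Hist1h2ap, 23 in Hist1h2ag and 31 in Hist1h2ao but for 1162 in Hist2h3c1, and for over 50 in 22 of the 42 with a loop.

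The table holds 1 normalised value per gene and library, of a unit that the sources used here do not give, so read depth is unknown and no counting interval can be set. Column sums were close, from 446010 to 454548. Control 2 listed the most genes above 0, 18595 against 17408 to 17635 in the other libraries. All 6 markers of the 2-cell programme (summing to 767 to 898 per library) and all 6 oocyte markers (4758 to 5233) were above 0 in every library. Cumulus and granulosa markers summed to 4.76 to 8.45, with Foxl2 and Amh at 0 throughout, sperm markers to 4.22 to 6.89, with Prm1 and Tnp2 at 0, and blood markers to 5.15 to 12.9, with Hbb-bt at 0. The ranges of the groups overlapped for each of these 5 lists.

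No histone gene passed the test of PNMC against control. With limma on log2(value + 1) and Benjamini-Hochberg adjustment over 12734 genes, 0 of 33 tested members had an adjusted p below 0.05, and the share called over all genes was 0%. The lowest adjusted p of a member was 0.967, against 0.172 over all genes. Fold changes below are on this log2(value + 1) scale, which understates the change of low genes. At an unadjusted p under 0.05, 3 members were lower in PNMC (H2afz, H3f3a and H2afv) and 0 were higher. Over all genes tested, 4.99% passed that line, 3.27% as lower and 1.73% as higher. In bulk embryos, less RNA per cell and fewer cells of a kind cannot be told apart. Direction was even: 16 members were higher and 17 lower, with a median log2 change of -0.01, beside 5487 higher, 7247 lower and a median of -0.05 over all genes.

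H1foo, the linker histone of oocytes and early embryos, was at 477 and 572 in the control libraries and at 538, 591 and 485 in the PNMC libraries. The groups overlapped almost entirely, with means of 525 ± 67.1 (SD, n = 2) and 538 ± 53.2 (SD, n = 3). Its log2 change was 0.04 (SE 0.121, 95% interval -0.22 to 0.30, adjusted p = 0.993 by limma). Of the tested histone genes only H3f3b had a higher deposited value, but per kilobase of the longest annotated transcript the order turned, with a mean of 447 for H1foo and 385 for H3f3b. As deposited, H1foo ranked 89 in the table by mean. It supplied 21.3% to 28.1% of the summed histone signal per library.

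H1f0, the replacement linker of non-dividing and differentiated cells, was at 17.0 and 27.4 in control and at 30.9, 22.5 and 29.3 in PNMC. The lowest value was control 1 and the groups overlapped. The log2 change was 0.33 (SE 0.239, limma adjusted p = 0.993), and it was -0.0034 without control 1 and 0.66 without control 2. Among the somatic linkers, which replace H1foo as development proceeds, Hist1h1a stood highest, at 23.7 and 12.8 in control and 15.7, 20.3 and 17.7 in PNMC. Both its extremes were control libraries, and its log2 change was 0.03 (SE 0.263). Hist1h1b followed at 2.36 and 5.52 in control and 3.44, 4.81 and 3.25 in PNMC, again with both extremes in control. Hist1h1c, Hist1h1d, Hist1h1e, H1fx and the testis linker Hist1h1t were below the level needed for testing. H1foo exceeded the summed somatic linkers 18.1 to 30.5 times per library and exceeded H1f0 16.5 to 28.1 times, with overlapping groups for both ratios. Per kilobase of the longest annotated transcript the mean was 447 for H1foo, 29.8 for the somatic linkers together and 12.4 for H1f0. Somatic linkers are replication-dependent, so their comparisons with H1foo and H1f0 show what poly(A) priming captured and not amounts of mRNA in the embryo.

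**Figure D1:**
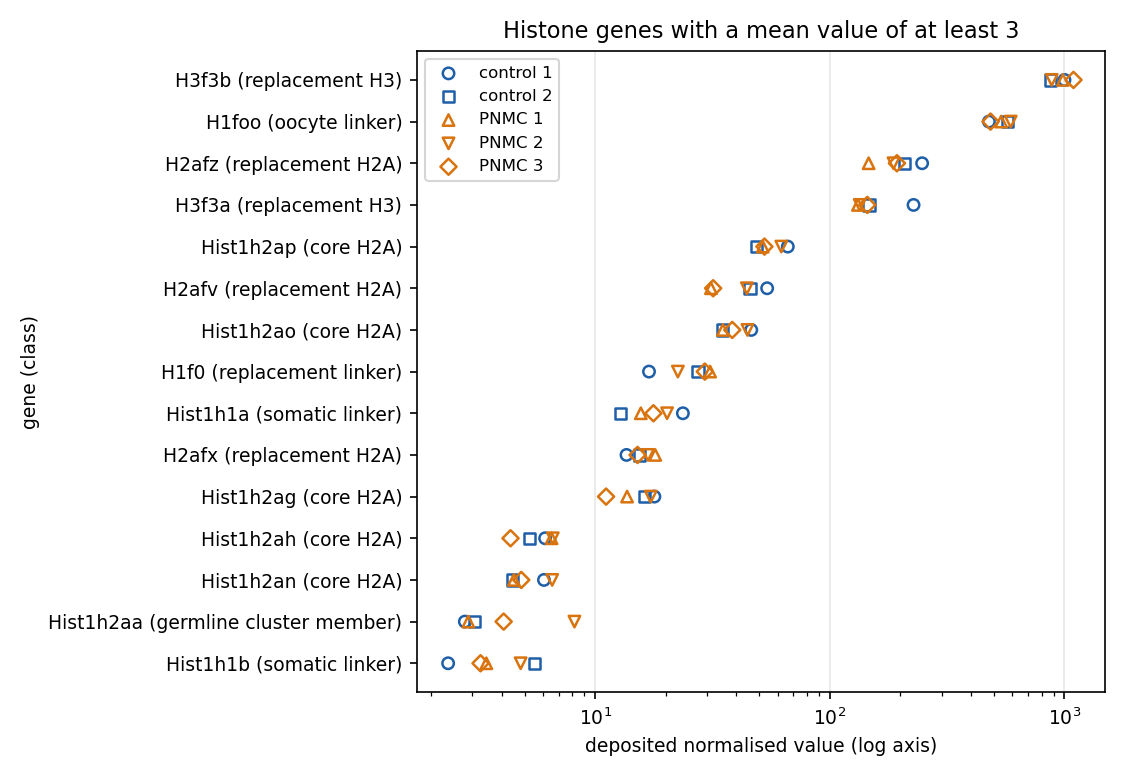
Deposited value in each library (log axis, no unit stated by the sources) of the histone genes with a mean of at least 3. The 2 control and 3 PNMC libraries are separate points. H3f3b and H1foo stood highest in all 5 libraries, and for most genes the points of the groups interleave.

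H3f3a and H3f3b both encode the replacement histone H3.3, from different chromosomes and with different untranslated regions. H3f3b had the highest deposited value of all histone genes in every library: 1002 and 872 in control and 986, 884 and 1095 in PNMC. Its group means, 937 ± 91.9 (SD, n = 2) and 988 ± 105 (SD, n = 3), differed by less than their spread, with a log2 change of 0.07 (SE 0.111, 95% interval -0.16 to 0.31). H3f3a was at 228 and 147 in control and at 132, 134 and 145 in PNMC. All PNMC values lay below both controls, but control 2 was within 3 units of the highest PNMC library while control 1 stood far above. The log2 change of H3f3a was -0.42 (SE 0.171, unadjusted p = 0.0292, adjusted p = 0.967 by limma). It was -0.10 without control 1 and -0.73 without control 2, so its size rests on which control library is kept.

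The ratio of H3f3b to H3f3a, chosen after the values were seen, was 4.40 and 5.94 in control and 7.47, 6.58 and 7.57 in PNMC. Every PNMC library was above both controls, and control 1, with the highest H3f3a, gave the lowest ratio. The antisense transcript H3f3aos was between 0 and 0.953. The library method does not mark strand, so reads where H3f3aos and H3f3a overlap cannot be assigned to one of them. The replacement H3 genes together exceeded all 12 core H3 genes 90.0 to 198 times per library as deposited, with both extremes in control, and their summed mean per kilobase was 440 against 8.66. Because core H3 mRNA lacks a poly(A) tail at the stem-loop, that ratio compares what was captured and not the amounts of H3 mRNA in the embryo.

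H2afz and H2afv encode the H2A.Z proteins, which sit at promoters and regulatory elements. H2afz was at 248 and 209 in control and at 147, 187 and 193 in PNMC. No PNMC library reached the lower control, and the means were 228 ± 27.7 (SD, n = 2) and 176 ± 25.5 (SD, n = 3). The log2 change was -0.38 (SE 0.150, 95% interval -0.70 to -0.06, unadjusted p = 0.0242, limma adjusted p = 0.967). H2afv showed the same arrangement at a lower level, with 54.1 and 45.7 in control against 31.2, 44.4 and 31.8 in PNMC. PNMC 2 was within 2 units of control 2, and the log2 change was -0.48 (SE 0.201, unadjusted p = 0.0315, limma adjusted p = 0.967). H2afz was 4.22 to 6.08 times H2afv in each library, and that ratio overlapped between groups.

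Of the 33 tested members, 4 had groups that did not overlap (H2afz, H2afv, H3f3a and the core gene Hist1h2bj), and in all 4 the PNMC libraries were the lower ones. Over all genes tested, 19.9% had groups without overlap, 11.9% with PNMC below and 7.97% with PNMC above. The unadjusted p of all of H2afz, H3f3a and H2afv was over 0.05 in the fit without control 1, in the fit without PNMC 1, after scaling libraries to equal medians, and in a fit with neither the variance trend nor robust variances, where the p-values were 0.145, 0.144 and 0.0922.

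The other H2A variants had lower values, and the 3 that could be tested had overlapping groups. H2afx, whose protein is phosphorylated at DNA breaks, was at 13.6 and 15.5 in control and at 18.0, 16.8 and 15.2 in PNMC, with a log2 change of 0.18 (SE 0.221). H2afj was between 2.12 and 2.90 with a log2 change of -0.15, and the macroH2A gene H2afy was between 0.974 and 2.84 with a log2 change of 0.15. H2afy2, H2afb1 and H2afb3 were below the level for testing. Of these, the second macroH2A gene, H2afy2, had groups that did not overlap, at 0.559 and 1.02 in control and 0.457, 0 and 0.386 in PNMC. These values are low, and no share without overlap is given for untested genes. Among untested core genes, groups also did not overlap for Hist1h2ac, with PNMC above. They did not overlap for Hist1h2bm, Hist1h3d, Hist1h4f and Hist2h2ab, with PNMC below. These core values were low too. Hist1h2ac did not exceed 1.07, and Hist2h2ab was at 0.0275 and 0.0457 in control and at 0 in PNMC. With no share over untested genes beside them, no pattern is read from these names. The 9 replacement H2A genes summed to 320 and 277 in control and to 201, 252 and 246 in PNMC. This sum, mostly H2afz and H2afv, was below both controls in every PNMC library, whereas the sum over all 14 replacement variants overlapped (1567 and 1323 against 1351, 1293 and 1514).

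**Figure D2:**
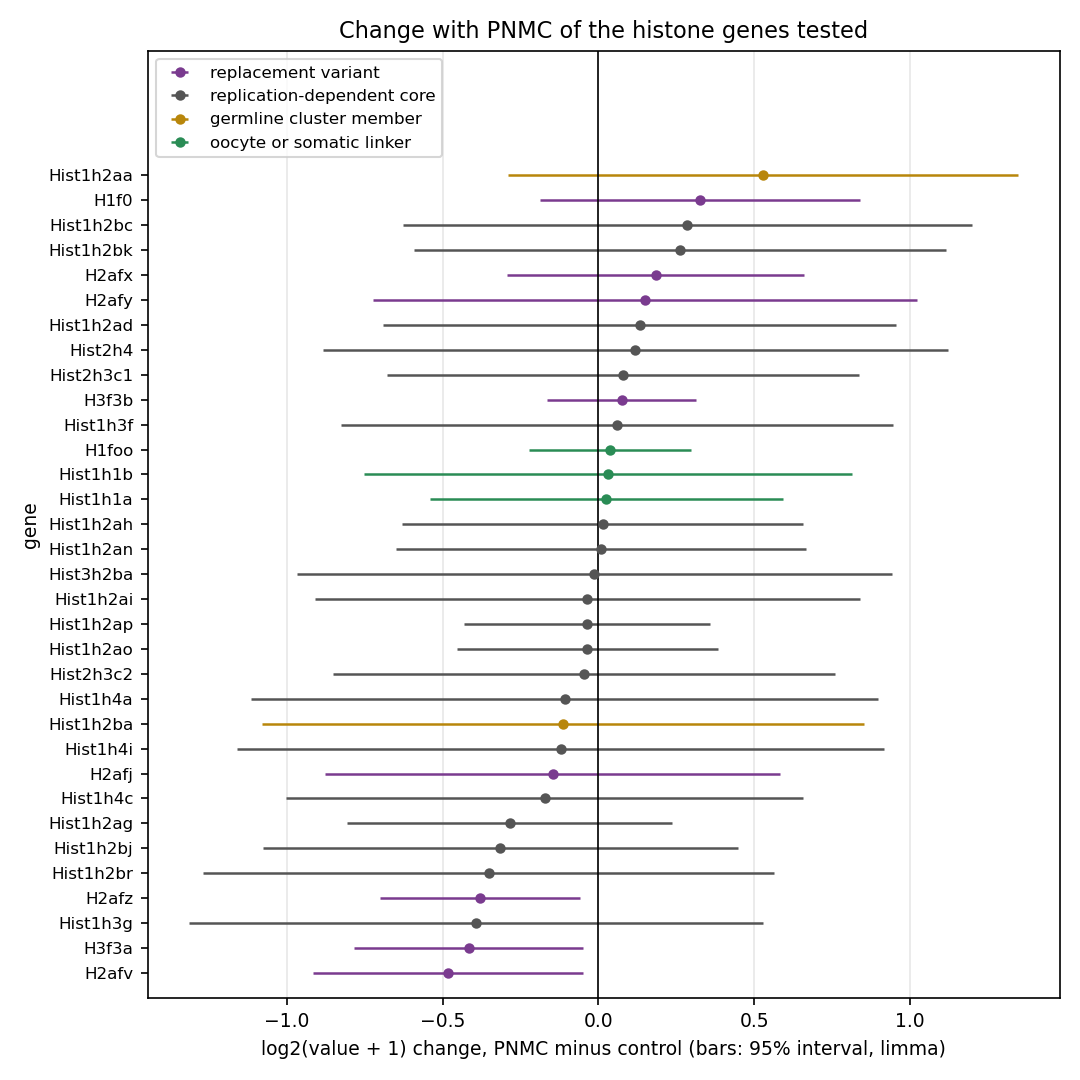
Log2 change, PNMC minus control, on the log2(value + 1) scale for the 33 tested histone genes, with bars for the 95% interval of the limma fit. The intervals of H2afz, H3f3a and H2afv lie below 0 before adjustment for multiple testing, and the others include 0.

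Core H2A genes held most of the replication-dependent signal. They made up 72.6% to 87.4% of the summed value of the 59 core genes per library, and 2 of them, Hist1h2ap and Hist1h2ao, made up 52.5% to 66.1%. Summed per kilobase of transcript, the mean was 272 for core H2A, 23.7 for H2B, 12.4 for H4 and 8.66 for H3. Hist1h2ap was at 66.3 and 48.6 in control and at 51.8, 62.2 and 52.7 in PNMC, so control 1 was highest and control 2 lowest. Its means of 57.4 ± 12.5 (SD, n = 2) and 55.6 ± 5.74 (SD, n = 3) gave a log2 change of -0.04 (SE 0.183). Hist1h2ao followed it library by library, at 46.3 and 34.8 in control and 35.1, 44.6 and 38.4 in PNMC. The ratio of Hist1h2ap to Hist1h2ao was 1.37 to 1.48 in all 5 libraries.

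These genes are near-copies: only 6.93% of the 50-base windows of Hist1h2ap and 6.50% of those of Hist1h2ao occurred in no other gene's annotated transcripts, and each shared over 93% of its windows with the other. The counting rule for reads that match several copies was not stated, so their separate levels are uncertain and their parallel course is not 2 measurements. Hist1h2ag, with 21.1% of windows unique, was at 17.9 and 16.2 in control and at 13.7, 17.3 and 11.1 in PNMC, with a log2 change of -0.28 (SE 0.242), which was -0.14 without PNMC 3 and -0.44 without PNMC 2. Hist1h2ah and Hist1h2an were between 4.36 and 6.60. By contrast all windows of H1foo, H2afv and H1f0 were unique, as were 83.1% for H2afz, 87.7% for H3f3a and 93.1% for H3f3b.

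Outside these 5 H2A genes (mean of at least 3, a split chosen after the values were seen) the core genes had low values. The mean was under 1 for 40 of the 59, and no H2B, H3 or H4 gene exceeded 4.04 in any library. The most abundant H2B gene by the mean, Hist1h2bk, was at 1.62 and 3.34 in control and 3.85, 4.04 and 1.70 in PNMC. Hist1h2bj was at 2.28 and 3.22 in control and 1.60, 2.16 and 2.25 in PNMC. Those groups did not overlap, although PNMC 3 and control 1 differed by under 0.1 unit, and the log2 change was -0.31 (SE 0.355). It was -0.13 without control 2 and -0.50 without control 1.

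For H3, Hist2h3c1 was between 1.85 and 2.71 with a log2 change of 0.08, and Hist2h3c2 between 1.28 and 2.27 with -0.05. Only 0% of the 50-base windows of Hist2h3c1 and 36.5% of those of Hist2h3c2 were unique, so their separate levels are uncertain. For H4, Hist1h4c was between 0.930 and 2.15 with a log2 change of -0.17, and Hist1h4a between 0.338 and 2.89 with -0.11. Among the other core genes chosen for their small p-values, Hist1h2bc (0.29), Hist1h2ad (0.13) and Hist2h4 (0.12) had positive log2 changes and Hist1h2br (-0.35) and Hist1h3g (-0.39) negative ones. All of these genes had overlapping groups and unadjusted p-values of 0.37 or more.

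The low core genes were highest in 1 library of each group. Of the 51 core genes above 0 with a mean under 3, the highest value was in control 2 for 19, in PNMC 2 for 16, in PNMC 1 for 8, in control 1 for 6 and in PNMC 3 for 2. Their sum was 27.6 and 49.5 in control and 36.7, 46.7 and 30.4 in PNMC, so the control libraries held both the lowest and the highest sum. The 5 abundant H2A genes ran differently, summing to 143 and 109 in control and to 112, 137 and 111 in PNMC: control 1, lowest for the low core genes, was highest for these. Control 2 and PNMC 2, with the largest sums of low core genes, also had the largest blood (12.9 and 10.2) and cumulus (8.45 and 6.93) marker sums. They differed in the number of genes above 0: control 2 listed the most (18595) and PNMC 2 the fewest (17408). The part of these differences between libraries in the result was not tested.

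**Figure D3:**
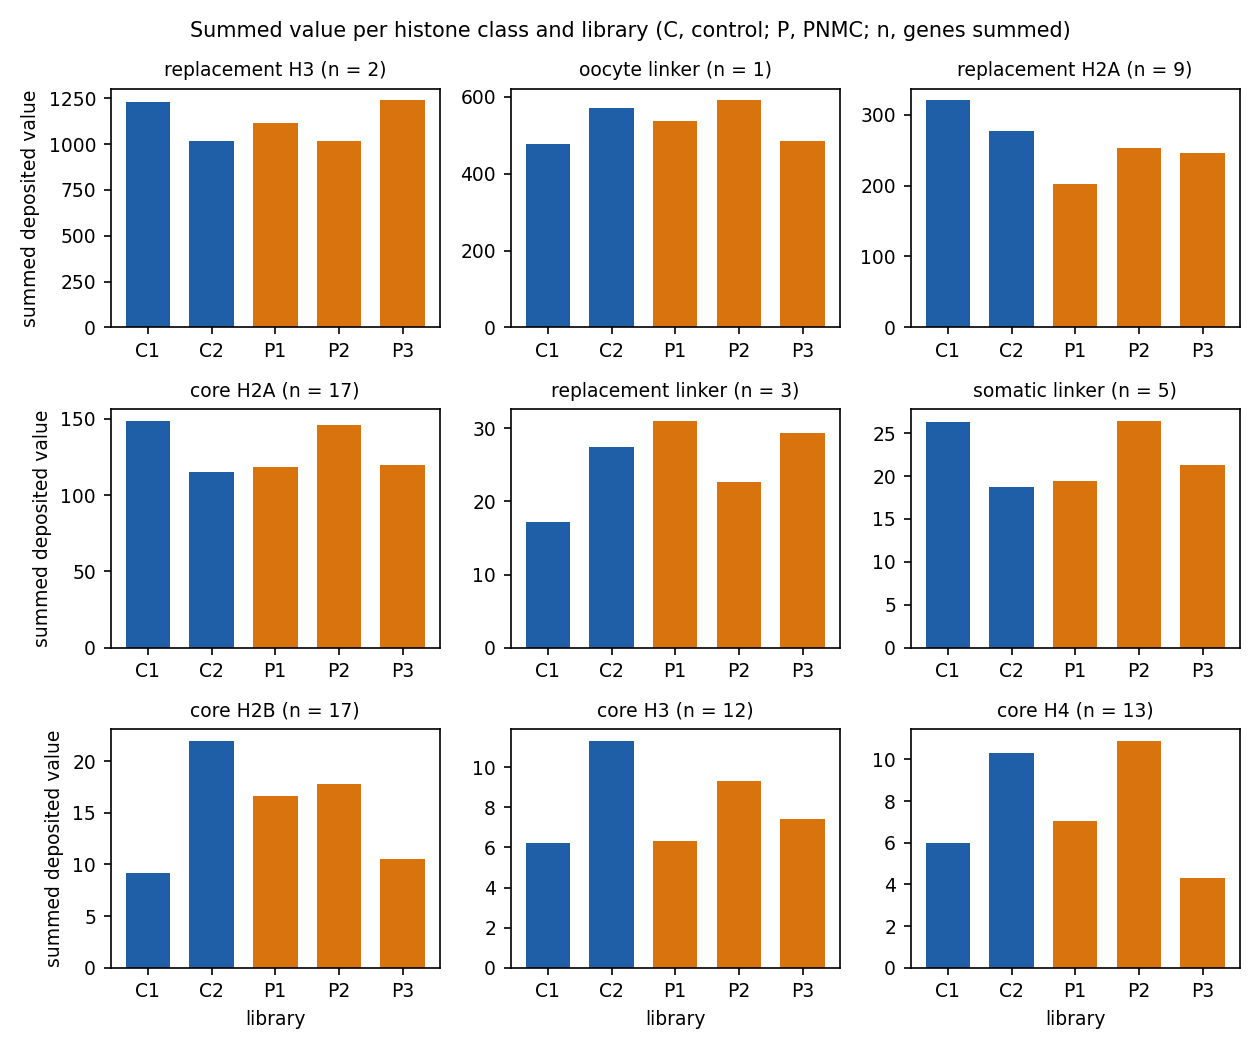
Summed deposited value per library for the classes of histone gene, with 2 control and 3 PNMC libraries. The replacement H2A sums of the PNMC libraries (201 to 252) lie below those of the controls (277 and 320), and the other classes overlap.

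By class, 8 of the 20 tested core genes were higher in PNMC and 12 lower, with a median log2 change of -0.04. Within the core, 3 H2A genes were higher and 4 lower (median -0.04), 2 H2B genes higher and 3 lower (-0.01), 2 H3 genes higher and 2 lower (0.01), and 1 H4 gene higher and 3 lower (-0.11). The 8 tested replacement variants split 4 and 4, also with a median of -0.04, and both tested somatic linkers had positive changes (median 0.03). The median over all genes was -0.05, and no class was tested as a set. The summed core value was 170 and 159 in control and 148, 184 and 142 in PNMC, with PNMC libraries at both extremes. For 21 of the 33 tested genes the 95% interval lay within 1 log2 unit either side of 0; those of the other 12 genes reached further.

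The ratio of H2afz plus H2afv to the summed core H2A genes, chosen after the values were seen, was 2.03 and 2.20 in control and 1.503, 1.59 and 1.88 in PNMC. Every PNMC library was below both controls. Core H2A genes are replication-dependent, so this ratio too compares what was captured and not amounts of mRNA in the embryo. H2afz and H2afv were lower in PNMC, as given above, while the core H2A sums overlapped (149 and 115 against 118, 146 and 120). Both parts enter the ratio: in PNMC 2 the core H2A sum (146) was above that of control 2 (115). Core H2A exceeded core H2B 5.25 to 16.2 times per library, with both extremes in control.

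Sequence overlap between copies and the annotated 3′ end are set beside the level as a description. Across the 59 core genes Spearman's rho between the mean value and the share of unique 50-base windows was -0.18. The genes are not independent, since they share libraries and sequence, and no p is given. At least 50% of the windows were shared for 32 of the 59, with medians of 21.1% unique for H2A, 50.3% for H2B, 38.0% for H3 and 60.5% for H4. Core genes whose annotated transcript ended within 50 bases of the loop (20 genes) had a median level of 0.590, and those whose transcript ran further (22 genes) had 0.624.

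**Figure D4:**
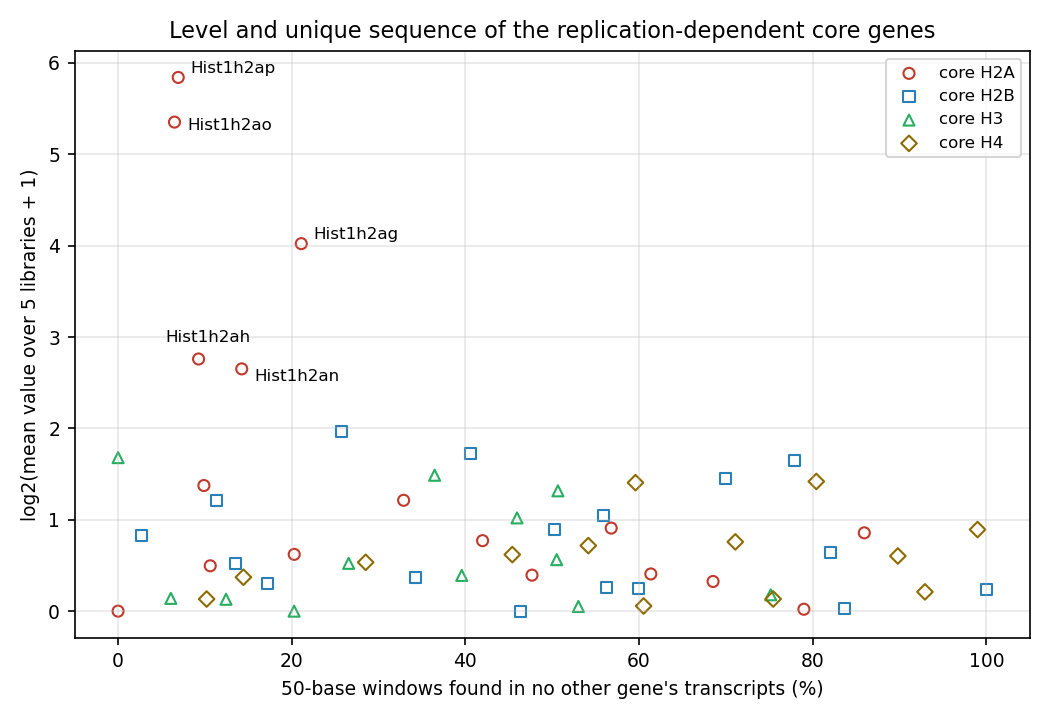
Mean deposited value over the 5 libraries, on the log scale used for testing, against the percentage of a gene's 50-base windows found in no other gene. The replication-dependent core genes are shown by class. Hist1h2ap and Hist1h2ao combine the highest core values with under 7% unique windows.

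Promoters are shown because letters picked after the values were seen recur in 4 of the 5 most abundant core H2A genes, and also in low ones. The stretches below come from RefSeq promoters (build GRCm38.p6), read from 250 bases before to 50 after the annotated gene start in the direction of the gene, with the matched letters in capitals.
Hist1h2ap: gaggtcttATTCAAATgaggcatg
Hist1h2ao: gaggtcttATTCAAATgaggcatg
Hist1h2ag: gaggccttATTCAAATaaagctta
Hist1h2an: aaggcgttATTCAAATgaggctta
Hist1h2ad: gaggtcttATTCAAATgagggatg
Hist1h2ah: aacttcgtATGCAAATaaagtgaa
Hist1h2bk: ttcactttATTTGCATacgaagtt
The capitals of Hist1h2ap lie at chr13:21833697-21833704 on the minus strand and those of Hist1h2ao at chr13:21810238-21810245 on the plus strand, upstream of each gene. Hist1h2ah and Hist1h2bk are neighbours that face away from each other, and their capitals are the same genomic bases, chr13:22035791-22035798, read on opposite strands.

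The capitals of the last pair are the octamer ATTTGCAT, known from H2B promoters as a site for POU proteins such as Oct1, the product of Pou2f1. Counted on either strand, it was in 6 of 17 core H2A and 6 of 15 core H2B promoters, against 1.97% of 27025 genes with a promoter. The pairs Hist1h2ae with Hist1h2bg and Hist1h2ah with Hist1h2bk share 1 octamer each. The other letters, ATTCAAAT, were picked with both the sequences and the values in view, and so support nothing. On either strand they were in 6 of 17 H2A promoters (the 5 printed and that of Hist3h2a) and 8 of 15 H2B promoters, against 1.47% of all genes. For 5 of these H2B genes (Hist1h2br, Hist1h2bq, Hist1h2bj, Hist1h2bp and Hist1h2bf) the match is the same genomic element as that of the divergent H2A neighbour, so such a pair counts once.

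Of the 5 most abundant core H2A genes, Hist1h2ap, Hist1h2ao, Hist1h2ag and Hist1h2an had ATTCAAAT and Hist1h2ah had the octamer, while Hist1h2ad, with ATTCAAAT, was only at 1.15 to 1.67. The H2B partners of these elements stayed low, with means of 1.31 for Hist1h2br and 2.30 for Hist1h2bj. CCAAT was in all 17 H2A, all 15 H2B and all 10 H3 core promoters but in 3 of 12 for H4, against 41.1% of all genes on either strand. The letters TATAAA were in 10 of 17 H2A, 7 of 15 H2B, 4 of 10 H3 and 8 of 12 H4 promoters, against 15.7%. A match describes letters in this window and not binding.

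The cluster members known from the germline were low. Hist1h2aa was at 2.78 and 3.05 in control and at 2.88, 8.16 and 4.07 in PNMC. PNMC 2 stood well above the other libraries and the groups overlapped, with a log2 change of 0.53 (SE 0.380), which was 0.18 without PNMC 2 and 0.80 without PNMC 1. Its divergent neighbour Hist1h2ba was at 1.08 and 2.13 in control and 1.03, 0.653 and 2.89 in PNMC, with a log2 change of -0.11 (SE 0.449). In PNMC 2, Hist1h2ba was thus at its lowest. Summed sperm markers were highest there, at 6.89 against 4.22 to 5.19 in the other libraries. Only 1 of the 6 sperm markers was above 0 in every library, and Prm1 and Tnp2 were at 0 in all. The part of these markers in the Hist1h2aa values was not tested.

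Genes that make, process and destroy replication-dependent histone mRNA were read from a list of 47 names. The table held 42 of them, and the names it lacked were aliases of other genes on the list. Of the 42 genes, 40 were tested. By limma 0 of 40 passed an adjusted p of 0.05 and 0 an unadjusted p of 0.05, while 20 were higher and 20 lower in PNMC with a median log2 change of -0.01. Groups did not overlap for 5 of the 40, with PNMC above for Dis3l2 and Cpsf3 and below for Srrt, Pou2f1 and Xrn1; the share over all genes was the 19.9% given above.

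Slbp, whose protein binds the stem-loop and is needed to process and translate these mRNAs, was at 351 and 406 in control and at 394, 376 and 381 in PNMC. The PNMC values all lay between the controls, with a log2 change of 0.02. Npat, which coactivates the histone clusters in S phase, had a log2 change of 0.06. The list's smallest p-values belonged to Dis3l2, an exonuclease for uridylated RNA (0.44), and Lsm4 (0.70) among positive log2 changes, and to Srrt, a partner of the cap-binding complex (-0.40), and Lsm2 (-0.27) among negative ones. Lsm2 and Lsm4 belong to the ring that binds the 3′ ends of mRNAs under decay. With 1 library left out the change ranged from -0.33 to 1.72 for Lsm4, from -0.46 to -0.09 for Lsm2, from -0.52 to -0.18 for Srrt and from 0.29 to 0.56 for Dis3l2.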

How the data were processed

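RNA-seq libraries of 2-cell embryos (2 DMSO control, 3 PNMC) were made with Smart-seq2, per the labels' protocols. Build GRCm39, the aligner HISAT2 2.0.5, DESeq2 1.16.1, HTSeq and Trimmomatic are listed, without their settings, per the submitters' processing notes. The deposited table holds a normalised signal per gene and library, made by the authors by steps that the notes do not spell out. Scaling by transcript length is neither stated nor settled by the values. The order of levels between genes is therefore given as deposited, with mean values per kilobase of the longest annotated transcript for H1foo, H3f3b, the other linkers and the core classes.

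From it, log2(value + 1) was tested with limma 3.58.1 (R 4.3.3; trend and robust variances, two-sided) over the 12734 genes with 1 or more in 2 libraries or more, with no covariate. A further 19551 genes, 50 histone genes among them, were not tested. The procedure was tested on simulated data with normal noise, drawn from the means and variances of the fit itself. Changes of 2-fold or more were placed only in abundant genes, so the simulation does not cover low genes or smaller changes. Summaries used Python 3.11.15. Windows and 3′ ends came from GENCODE M21 transcripts (GRCm38), matched by symbol. Promoters came from RefSeq (GRCm38.p6, 76 of 83 genes matched by Entrez ID). Protein sequences were not used here.

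Alternatives were another pseudocount, other filters, median scaling, quantile normalisation, a fit with neither the variance trend nor robust variances, a replicate block, each library left out and windows of 100 bases. The members and lists were chosen with earlier results of these data known. Genes were named by rule: every detected variant, linker and germline member, per core class the 2 highest means, the 4 smallest p-values in each direction among core genes, and from the mRNA list Slbp, Npat and the 2 smallest p-values in each direction. Genes outside it (Hist1h2ah, Hist1h2an, the genes at 0 and those named for non-overlap or a promoter match) were named after their values were seen.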

Additional observations from a re-analysis of the deposited data

How the results depend on the processing

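Depth is unknown and 5 libraries limit precision. By limma 0 histone genes and 0 genes of the mRNA list passed an adjusted p of 0.05 under each of the 12 alternatives, and the lowest adjusted p of a named gene was 0.760. With 1 library left out, medians ran from -0.13 to 0.040 for replacement variants, from -0.24 to 0.11 for core genes, from -0.087 to 0.099 for somatic linkers and from -0.087 to 0.00024 for the mRNA list. The core median (-0.035) also turned sign with median scaling (0.041), quantile normalisation (0.051) and the replicate block (0.071). The replacement median was -0.082 without a filter, -0.15 with a minimum of 10 and 0.040 with median scaling, and the list's was -0.046 with that minimum and 0.069 with median scaling. The median share of unique windows of 100 bases over core genes was 57.1%. Replicate numbers 1 and 2 recur in both groups, but deviations of same-numbered libraries correlated at -0.058 and -0.043. PNMC 3 has no control of its number, so a replicate block takes it out of the contrast. The block therefore gave the same changes as leaving out PNMC 3 and is not a separate check of them. With the block 0 members were called and 2, H2afz and H3f3a, had an unadjusted limma p under 0.05. The replacement median was -0.12, and changes turned sign for H3f3b (-0.0016), Hist2h3c2 (0.085), Hist1h4a (0.32) and Npat (-0.043). Median scaling turned Hist1h2ap (0.041), Hist1h2ao (0.041) and Hist2h3c2 (0.029). Quantile normalisation turned H1foo (-0.053), Hist2h3c2 (0.042) and Slbp (-0.030). Leaving out 1 library at a time turned the sign for H3f3b (-0.025 to 0.17), H1foo (-0.093 to 0.17), H1f0 (-0.0034 to 0.66), Hist1h1a (-0.39 to 0.44), Hist1h1b (-0.45 to 0.51), H2afy (-0.24 to 0.54), Hist1h2ba (-0.48 to 0.18), Hist1h2ap (-0.26 to 0.18), Hist1h2ao (-0.24 to 0.16), Hist1h2bk (-0.10 to 0.63), Hist2h3c1 (-0.036 to 0.20), Hist2h3c2 (-0.25 to 0.16), Hist1h4c (-0.32 to 0.018), Hist1h4a (-0.45 to 0.32), Hist1h2br (-0.83 to 0.13), Hist1h2bc (-0.29 to 0.86), Hist2h4 (-0.37 to 0.60), Slbp (-0.082 to 0.13), Npat (-0.043 to 0.20), and Lsm4 (-0.33 to 1.72); the cause was not tested. It kept the sign but moved by over 1.5 times, in fits that held the gene, for H2afx (0.096 to 0.27), H2afj (-0.23 to -0.072), Hist1h2ad (0.056 to 0.21) and Hist1h3g (-0.63 to -0.24), beside the genes so described above.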
